A study of Mus musculus with 6 samples.

Results

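The aryl hydrocarbon receptor AHR, its partner ARNT and the AHR target gene Tiparp were followed in activated mouse CD8+ T cells cultured with or without the catechol DOPAC. The genes were taken by symbol from a table of 11175 genes. Of the 3 genes sought, Arnt and Tiparp had a row, and Ahr was not analysed here. Cytotoxic-lineage T cells of wild-type mouse spleen were activated in culture for 48 h with antibodies to CD3 and CD28. The control group (3 libraries) received no further agent, and the other group (3 libraries) was cultured with DOPAC, 3,4-dihydroxyphenylacetic acid, a breakdown product of dopamine. The sources used here do not give the DOPAC dose or the strain, sex and age of the mice, and nothing in the labels ties the replicates to separate animals or cultures, so the spread that p-values rest on may be technical.

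AHR is a ligand-activated transcription factor of the basic helix-loop-helix PAS family. It waits in the cytosol in a complex with the chaperone HSP90 and the co-chaperone p23, enters the nucleus when it binds a planar aromatic ligand such as a dioxin or a tryptophan metabolite, and there pairs with ARNT to bind DNA at xenobiotic response elements. ARNT is also the obligate partner of the hypoxia-inducible factors. Tiparp encodes a mono-ADP-ribosyltransferase, also called PARP7, which AHR induces and which restrains AHR in turn.

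The stretches of DNA just before the starts of Arnt and Tiparp are shown because the AHR-ARNT pair binds the core letters GCGTG. Sequences came from the RefSeq promoter table on GRCm38.p6 (the build also called mm10), which held 2 of the 3 genes, and each was ended before the first annotated exon base. Both genes lie on the plus strand of chromosome 3, and capitals mark GCGTG or, on the other strand, CACGC.
Arnt, chr3:95434140-95434387: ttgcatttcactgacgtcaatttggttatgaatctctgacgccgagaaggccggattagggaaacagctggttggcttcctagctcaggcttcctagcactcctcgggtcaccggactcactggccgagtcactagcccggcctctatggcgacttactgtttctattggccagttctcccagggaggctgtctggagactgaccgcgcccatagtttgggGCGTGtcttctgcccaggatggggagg
Tiparp, chr3:65528197-65528409: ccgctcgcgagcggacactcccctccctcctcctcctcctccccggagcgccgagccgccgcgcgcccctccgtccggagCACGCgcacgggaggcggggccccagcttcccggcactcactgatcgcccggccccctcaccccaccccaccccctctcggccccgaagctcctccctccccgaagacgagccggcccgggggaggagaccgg

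Each stretch held GCGTG at 1 place, searched on both strands. In Arnt the match ended 25 bases before the RefSeq start, and in Tiparp, on the minus strand, 166 bases before it. Such a match is common. Among 32851 promoters, 28.0% held GCGTG in a window of 248 bases and 24.2% in a window of 213 bases. The longer form TNGCGTG, which holds the shorter one, was found in neither stretch and in 4.07% and 3.52% of all promoters at these lengths. ACGTG, a core that ARNT binds together with hypoxia-inducible factors, was also found in neither, against 16.5% and 13.9% of all promoters. The GCGTG matches do not tell which partner of ARNT, if any, binds there, and binding was not tested. The Tiparp stretch is 78.4% G and C and the Arnt stretch 56.9%, where the medians of all promoters were 51.6% and 52.4%.

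Among the 6 libraries, control replicate 1 stood apart. Its correlation with the other 5 over genes (Pearson's r, genes not being independent replicates) was 0.899 to 0.917, against 0.974 to 0.992 among those 5, and genes with long exons read low in it. FPKM (fragments scaled to transcript length and to the mapped total) hold no read counts, so the depth behind each value is unknown, and sums over all genes ranged from 283818 to 316035 FPKM per library. All 8 markers looked up for CD8 T cells had a row. They were the CD8 genes Cd8a and Cd8b1 and the wider T cell genes Cd3d, Cd3e, Cd3g, Trac, Cd2 and Lck. These 8 summed to 1019 to 1082 FPKM in the controls and 963 to 1074 FPKM with DOPAC. Markers of CD4 T cells and dendritic cells (0 of 3 and 0 of 5 with a row) were not analysed here. Of 8 macrophage and monocyte markers, Lyz2, C1qb and Cd68 had a row. These 3 summed to 15.4 to 35.2 FPKM in the controls and 4.77 to 13.0 FPKM with DOPAC. The stromal genes Col1a1, Col1a2 and Col3a1, of 5 looked up, summed to 25.7 to 27.9 FPKM in the controls and 0.330 to 16.0 FPKM with DOPAC. The erythroid genes Hbb-bs and Hba-a1, of 5 looked up, summed to 2.72 to 10.4 FPKM and 0.280 to 3.02 FPKM. The B cell gene Cd79b, the only 1 of 5 with a row, measured 1.54 to 2.49 FPKM and 1.47 to 2.61 FPKM. Nkg7, the 1 of 3 NK cell genes with a row and also a gene of cytotoxic T cells, measured 137 to 172 FPKM and 127 to 141 FPKM.

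Tiparp was higher in all 3 DOPAC libraries than in all 3 controls, while Arnt overlapped between the groups. No difference passed the threshold over all genes. With limma's moderated test on log2(FPKM + 1), 0 of 10887 genes (0%) reached an adjusted p under 0.05 (Benjamini-Hochberg), and 456 genes (4.19%) had an unadjusted p under 0.05, with Tiparp the 1 of the 2 measured genes among them. Without control replicate 1 the limma counts were 2 (0.0184%) and 1574 (14.5%), and neither Arnt nor Tiparp was among the 2. In 1871 genes (17.2%) the groups did not overlap, 1348 of them (12.4%) higher and 523 (4.8%) lower with DOPAC, and Tiparp is among the 1348.

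**Figure D1:**
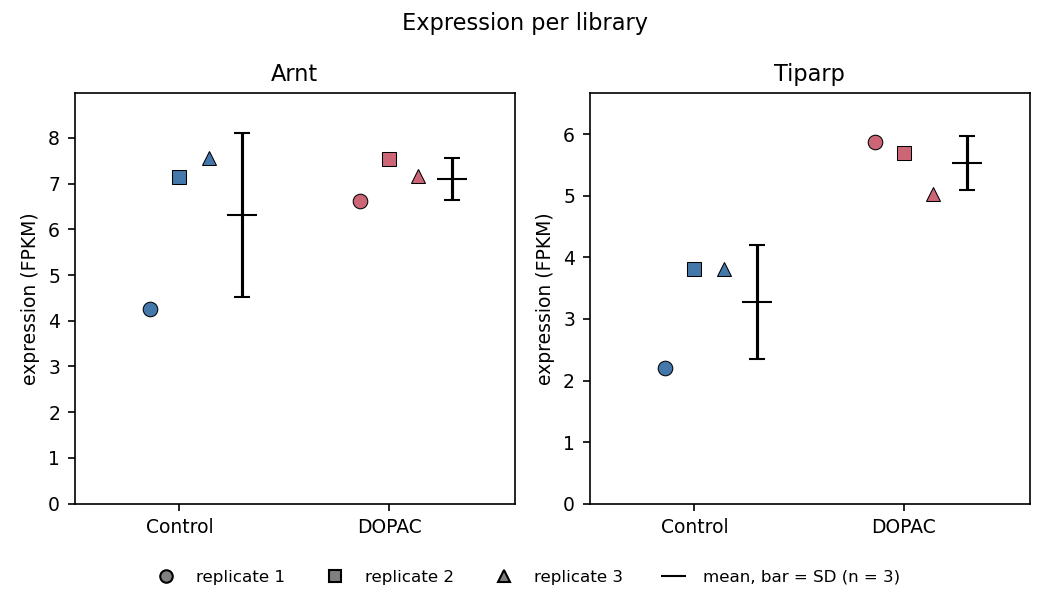
Expression of Arnt and Tiparp in FPKM (vertical axes, starting at 0) in each of the 3 control (blue) and 3 DOPAC (red) libraries, with the mean and SD of each group. Tiparp lies at 2.20 to 3.82 FPKM in the controls and at 5.03 to 5.87 FPKM with DOPAC, and control replicate 1 is low for both genes.

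Arnt (ENSMUSG00000015522, chromosome 3 at 95434388 to 95497240 on GRCm38, protein coding, 8007 bp of summed exons) encodes the nuclear partner. It measured 4.26, 7.13 and 7.56 FPKM in control replicates 1 to 3 and 6.61, 7.53 and 7.16 FPKM in DOPAC replicates 1 to 3. Control replicate 1 was low, and the other 5 libraries lay between 6.61 and 7.56 FPKM with both groups mixed. The group means were 6.32 ± 1.79 and 7.10 ± 0.462 FPKM (SD, n = 3 each), at the 44.7th and 48.0th percentiles of the tested genes by level. The log2 fold change came to 0.18 (95% interval -0.32 to 0.67; limma adjusted p = 0.821; exact permutation p = 0.8, two-sided). Without control replicate 1 it was -0.04 (95% interval -0.24 to 0.15), so its sign rested on that library.

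Tiparp (ENSMUSG00000034640, chromosome 3 at 65528410 to 65555518, protein coding, 4358 bp of summed exons) encodes the ADP-ribosyltransferase that AHR induces. It measured 2.20, 3.82 and 3.80 FPKM in the controls and 5.87, 5.70 and 5.03 FPKM with DOPAC. The groups did not overlap, and the lowest DOPAC library was above the highest control by more than the SD of either group. Group means were 3.28 ± 0.927 and 5.53 ± 0.446 FPKM (SD, n = 3 each), a ratio of means of 1.69, and the gene went from the 25.6th to the 40.6th percentile by level. Its log2 fold change came to 0.63 (95% interval 0.18 to 1.09; unadjusted p = 0.0139; limma adjusted p = 0.801). The exact permutation p was 0.1, two-sided, the smallest that 3 against 3 libraries allow. Without control replicate 1 the log2 fold change came to 0.44 (95% interval 0.23 to 0.65; limma adjusted p = 0.295). Of the 10887 genes, 1.02% had a higher log2 fold change and 1.10% a smaller unadjusted p. The macrophage and stromal markers given above summed lower in all 3 DOPAC libraries, the direction opposite to Tiparp, and their part in the value was not tested. In such bulk libraries fewer cells of a type and less RNA per cell cannot be told apart. The libraries do not mark strand, and 223 bp of Tiparp exons are shared with the antisense pseudogene 4931440P22Rik, so reads there are uncertain.

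By level per length Arnt was above Tiparp in each of the 6 libraries. In the controls the lowest Arnt value, 4.26 FPKM, lay above the highest Tiparp value, 3.82 FPKM. With DOPAC the lowest Arnt value was 6.61 FPKM and the highest Tiparp value 5.87 FPKM, so these 2 genes did not overlap in either group.

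Control replicate 1 read low for Arnt and Tiparp alike. It held 0.580 of the mean of the other 2 controls for Arnt and 0.579 for Tiparp. On the log2(FPKM + 1) scale its deviation from the mean of the other 5 libraries was -0.64 for Arnt and -0.85 for Tiparp. Those 5 include the DOPAC libraries, where Tiparp was higher, so the Tiparp deviation also holds the difference between the groups. Over all genes the median deviation in control replicate 1 was -0.43 for summed exons of 4000 to 8000 bp (Tiparp) and -0.67 above 8000 bp (Arnt, just over that bound). With the length trend of each library removed, the log2 fold change was 0.03 for Arnt (95% interval -0.15 to 0.22) and 0.56 for Tiparp (95% interval 0.29 to 0.83; limma adjusted p = 0.409).

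**Figure D2:**
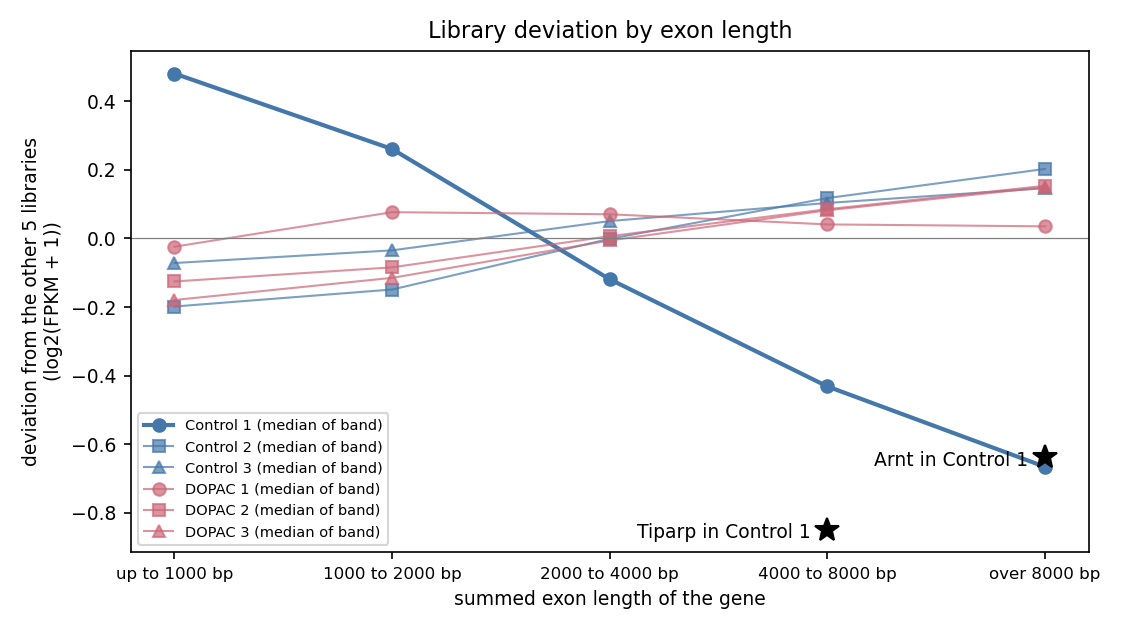
Deviation of each library from the mean of the other 5 on the log2(FPKM + 1) scale (vertical axis) in 5 bands of summed exon length (horizontal axis), where lines join the median over genes and stars give Arnt and Tiparp in control replicate 1. Control replicate 1 falls from 0.48 in the shortest band to -0.67 in the longest, and Arnt and Tiparp lie low in it. The other 5 libraries include the DOPAC group, so the Tiparp star also holds the difference between the groups.

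A ratio of 2 genes within a library does not depend on how that library was scaled. Tiparp and Arnt were compared in this way, a choice made after their values were seen. A trend with exon length need not cancel in such a ratio. Tiparp and Arnt lie in different length bands, with medians in control replicate 1 of -0.43 and -0.67. The ratio of Tiparp to Arnt was 0.518, 0.535 and 0.503 in the controls against 0.888, 0.757 and 0.702 with DOPAC. The controls were close to each other, control replicate 1 among them, and all 3 DOPAC libraries were higher. The means were 0.519 ± 0.0158 and 0.782 ± 0.0955 (SD, n = 3 each). On a log2 scale the ratio differed by 0.59, that is 1.50-fold, and by 0.59 without control replicate 1 (exact permutation p = 0.1, two-sided, the smallest possible).

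**Figure D3:**
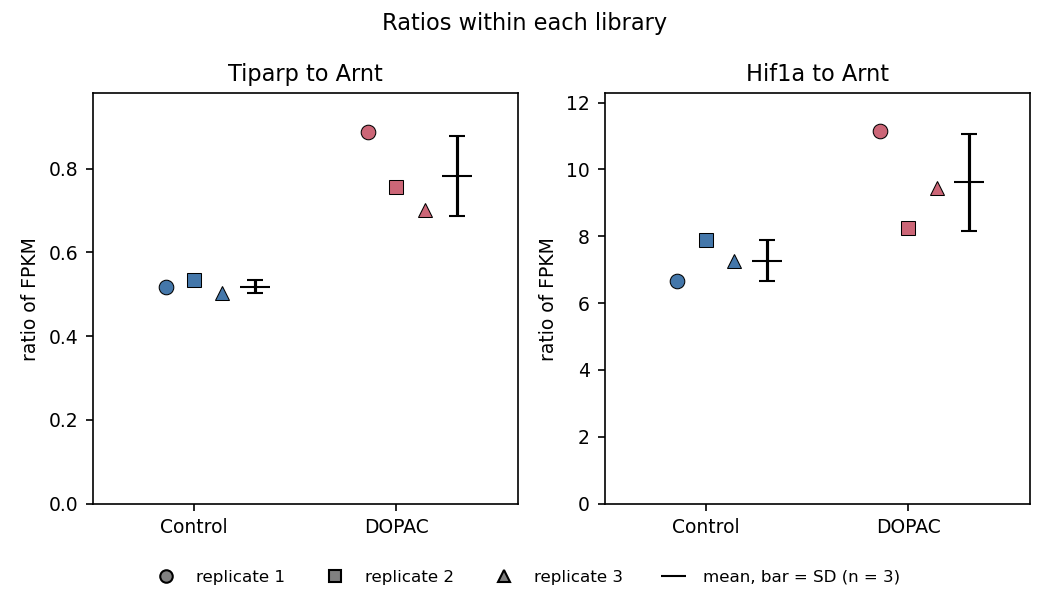
Ratios of FPKM within each library (vertical axes, starting at 0) for Tiparp to Arnt and Hif1a to Arnt, with the mean and SD of each group of 3. The control values of Tiparp to Arnt lie between 0.503 and 0.535 and the DOPAC values between 0.702 and 0.888.

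Tiparp kept a positive log2 fold change in the 17 alternative settings that gave it a value, from 0.40 to 0.78, with unadjusted p-values from 0.00217 to 0.0476 and limma adjusted p-values from 0.285 to 0.994. Its smallest fold changes came without control replicate 1. Arnt ranged from -0.04 to 0.31 over 18 settings, with 0 settings at an unadjusted p under 0.05 for this gene.

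**Figure D4:**
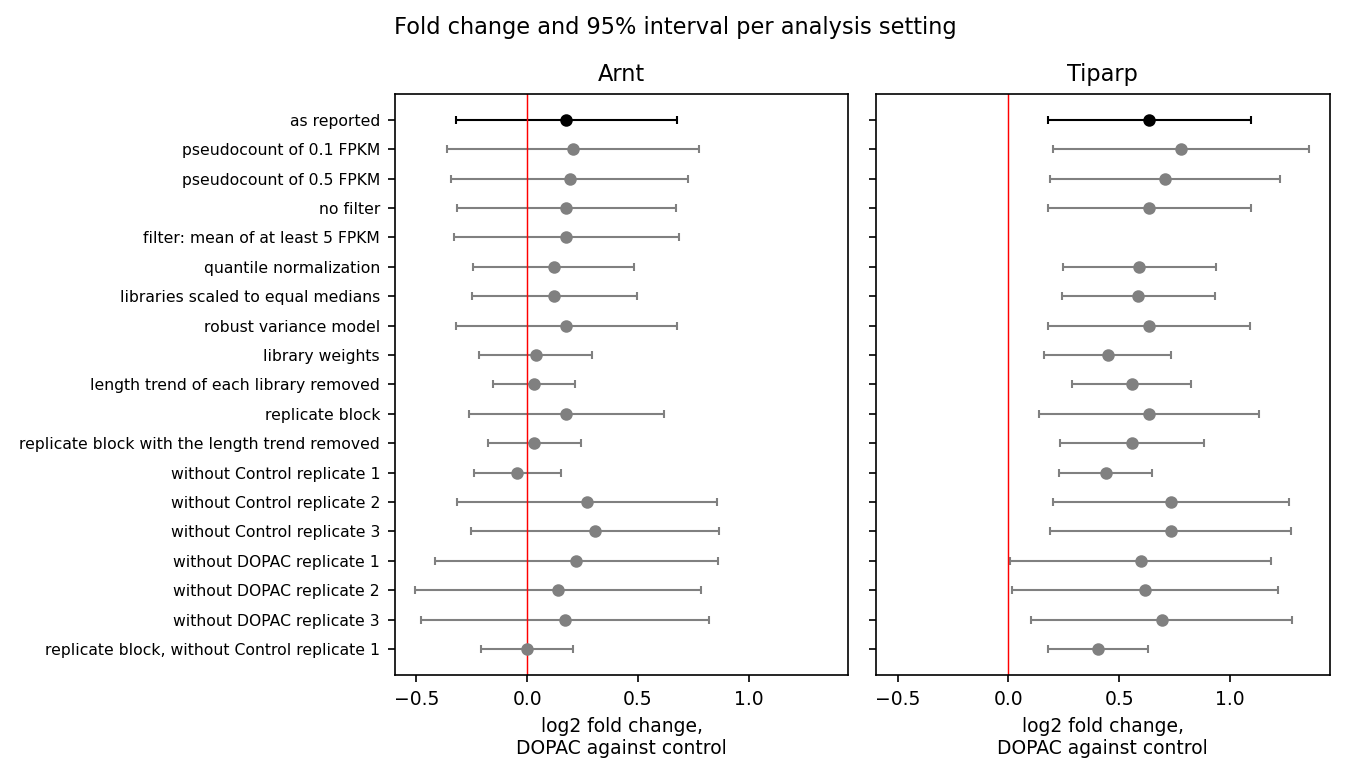
Log2 fold change of DOPAC against control (horizontal axis; points, with 95% intervals of the limma model as bars) for Arnt and Tiparp under the reported analysis (black) and 18 alternatives (grey). The intervals of Tiparp lie above 0 in each setting shown, those of Arnt include 0, and Tiparp has no value under the filter of 5 FPKM.

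The genes that work beside AHR, ARNT and TIPARP were described from 6 lists, by counts and medians with no test of the lists, and each is read against all 10887 genes, of which 6761 (62.1%) were positive in log2 fold change, with a median of 0.07. Without control replicate 1 the positive genes were 5146 (47.3%) and the median was -0.01. In none of the lists did a gene pass the limma threshold over all genes. At an unadjusted p under 0.05, 297 genes (2.73%) were higher and 159 (1.46%) lower over the whole table.

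The cytosolic receptor complex and the ubiquitin ligase parts that act on AHR were measured for 9 of 11 genes, 6 with positive and 3 with negative log2 fold changes (median 0.20). The counts without control replicate 1 were 4 and 5, with a median of -0.0006. In 4 of the 9 the DOPAC libraries were all higher, against 12.4% of all genes tested. The gap between highest control and lowest DOPAC library was narrow for Cul4a (9.32 and 9.37 FPKM) and Hsp90ab1 (1835 and 1848 FPKM). It was wider for Hsp90aa1 and Ptges3. Hsp90aa1, the inducible form of the chaperone, measured 320.0, 522 and 537 FPKM in the controls and 648, 628 and 668 FPKM with DOPAC. This was the 1 gene of the list with an unadjusted p under 0.05 (log2 fold change 0.53, 95% interval 0.03 to 1.04; limma adjusted p = 0.801), and it had 0.29 without control replicate 1. The constitutive form Hsp90ab1 had 0.20 (95% interval -0.12 to 0.51) and Ptges3, which encodes p23, 0.27 (95% interval -0.04 to 0.57). With control replicate 1 left out these were 0.08 and 0.18. The scaffold gene Cul4a had 0.28 (0.07 without control replicate 1). In the remaining genes of the list the groups overlapped. Cul4b and Ddb1 had 0.33 and 0.20 (-0.01 and -0.02 without control replicate 1). The 3 negative genes, Stub1, Rbx1 and Tbl3, had -0.28, -0.27 and -0.07 (-0.11, -0.0006 and -0.15 without control replicate 1).

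ARNT and the other bHLH-PAS and coactivator genes had 10 of 20 measured, 9 positive and 1 negative, with a median of 0.12. Without control replicate 1 the count was 2 positive and 8 negative, with a median of -0.09. The median was also negative with all 6 libraries once the length trend was removed (-0.03, 4 positive and 6 negative) and under library weights (-0.08). Hif1a, the oxygen-regulated partner of ARNT, measured 28.4, 56.2 and 54.9 FPKM in the controls and 73.6, 62.2 and 67.6 FPKM with DOPAC. Its log2 fold change came to 0.59 (95% interval -0.05 to 1.24; limma adjusted p = 0.801), and 0.28 without control replicate 1. Set against Arnt in the same library, Hif1a stood at 6.66, 7.88 and 7.26 in the controls against 11.1, 8.26 and 9.43 with DOPAC, with no overlap (1.32-fold; exact permutation p = 0.1, two-sided; chosen after the values were seen). In each library Hif1a was thus listed above Arnt per length. The circadian genes Arntl and Clock had 0.10 and 0.18 (95% intervals -0.16 to 0.35 and -0.31 to 0.67), and both signs changed with the length trend removed. They had 0.07 and -0.03 without control replicate 1.

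Of 19 AHR target genes, 5 were measured, Tiparp included. Cyp1a1, Cyp1b1 and Ahrr, textbook targets of the receptor, were not analysed here, so the counts do not cover the target genes as a whole. The 5 had positive log2 fold changes (median 0.31, or 0.13 without control replicate 1, when 3 were positive), and in 3 of them, Stc2 among them, the DOPAC libraries were all higher, against 12.4% of all genes tested. With the length trend removed, 3 were positive and 2 negative (median 0.25). Stc2, which encodes the secreted glycoprotein stanniocalcin 2, measured 0.877, 0.969 and 0.573 FPKM in the controls and 1.43, 1.36 and 1.52 FPKM with DOPAC. Its log2 fold change came to 0.44 (95% interval 0.13 to 0.74; unadjusted p = 0.0118; limma adjusted p = 0.801), and 0.47 without control replicate 1. With the length trend removed the log2 fold change of Stc2 was 0.34 (limma unadjusted p = 0.102). The controls of Stc2 lie under the filter of 1 FPKM, so it entered the comparison through its DOPAC values. At such levels the added 1 FPKM shrinks a fold change. The counts and median of the list include Stc2, whose higher DOPAC values the filter favoured. Nfe2l2, the antioxidant transcription factor NRF2, had 0.31 (95% interval -0.12 to 0.74), and 0.13 without control replicate 1. Ikzf3, the lymphoid factor Aiolos, had 0.08 (95% interval -0.53 to 0.69), and -0.20 without control replicate 1.

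Within the PARP family and its ADP-ribose hydrolases, 19 of 23 genes were measured, with 15 positive and 4 negative log2 fold changes (median 0.18). Without control replicate 1 there were 9 positive and 10 negative, with a median of -0.04, and under library weights the median was -0.02. Tiparp, which this list shares with the AHR targets, and Parp9 were the 2 genes with an unadjusted p under 0.05. Parp9, an interferon-inducible member, measured 8.01, 15.8 and 12.1 FPKM in the controls and 21.9, 17.6 and 17.3 FPKM with DOPAC. Its log2 fold change came to 0.66 (95% interval 0.08 to 1.23; limma adjusted p = 0.801), and 0.42 without control replicate 1. Parp11 had 0.26 (95% interval -0.13 to 0.64), and 0.10 without control replicate 1. Adprs, which removes ADP-ribose from serine, had -0.24 (95% interval -0.59 to 0.10), or -0.14 without control replicate 1, and its DOPAC libraries were all lower.

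Genes that handle catechols and dopamine were measured for 9 of 24, with 4 positive and 5 negative log2 fold changes both with all 6 libraries (median -0.01) and without control replicate 1 (median -0.02). Aldh2, the mitochondrial aldehyde dehydrogenase that completes the making of DOPAC from dopamine, measured 3.90, 2.24 and 2.11 FPKM in the controls and 2.14, 1.35 and 1.27 FPKM with DOPAC. DOPAC replicate 1 overlapped the controls, and the log2 fold change was -0.52 (95% interval -1.06 to 0.01), or -0.31 without control replicate 1. Its level was lower with DOPAC in each of the 3 pairs of libraries with the same number. With the replicate number as a block its unadjusted p went from 0.0546 to 0.0104 (limma adjusted p = 0.698). This made it the 1 gene of the 9 lower at an unadjusted p under 0.05, against 208 of all 10887 genes in that fit. Maoa, the monoamine oxidase that starts this conversion, had -0.11 (95% interval -0.38 to 0.15), with its DOPAC libraries all lower. The macrophage and stromal markers given above also summed lower with DOPAC, the same direction as Aldh2 and Maoa. The part of those markers in the Aldh2 and Maoa values was not tested. Adh5, an alcohol dehydrogenase, had 0.19 (95% interval -0.11 to 0.49). Mat2b, a subunit of the enzyme that makes S-adenosylmethionine, had 0.12 (95% interval -0.22 to 0.45), with 0.03 when control replicate 1 was left out and 0.04 when DOPAC replicate 3 was.

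Enzymes and carriers for tryptophan-derived AHR ligands were measured for 8 of 18 genes, 7 positive and 1 negative (median 0.18), and 5 positive and 3 negative without control replicate 1 (median 0.13). Haao, Kyat3 and Kyat1 of the kynurenine pathway had 0.33, 0.22 and 0.25, with group means of 2.41 FPKM or less. Their 95% intervals were -0.04 to 0.70, -0.05 to 0.49 and -0.07 to 0.57. With the length trend removed these genes had 0.24, 0.05 and 0.23. The 1 negative gene of the list was Afmid of the same pathway, with -0.004 (95% interval -0.41 to 0.40). Slc7a5, part of the carrier that brings kynurenine into T cells, measured 60.5, 106 and 95.4 FPKM in the controls and 101, 105 and 119 FPKM with DOPAC. The groups overlapped, and the log2 difference was 0.34 (95% interval -0.19 to 0.87), and 0.10 without control replicate 1.

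**Figure D5:**
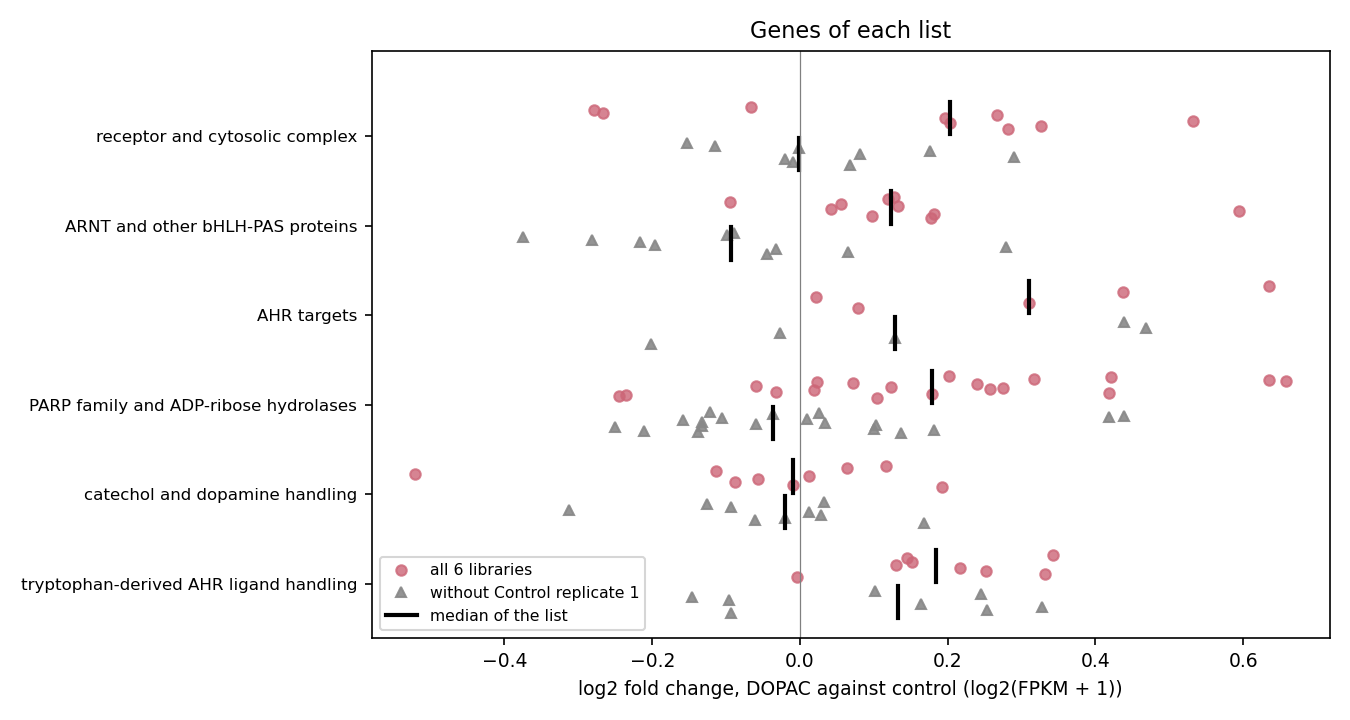
Log2 fold change of DOPAC against control (horizontal axis) for each measured gene of the 6 lists, with all 6 libraries (red circles) and without control replicate 1 (grey triangles), and the median of each list as a bar. Tiparp is the circle at 0.63 in the AHR target and PARP rows, and the median of the ARNT and bHLH-PAS row moves from 0.12 to -0.09.

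Genes with the closest pattern were sought by Pearson's r of log2(FPKM + 1) over the 6 libraries, and r is a description of genes picked for it. For Arnt these were Srpr, Top3a, Aftph and Znf41-ps, with r from 0.998 to 0.999, and 0.961 to 0.984 over the 5 libraries without control replicate 1. Each of these 4 was also low in control replicate 1. For Tiparp they were Gzf1 (r = 0.995), Tmem50b (0.991), Septin2 (0.990) and Rheb (0.988), with r from 0.958 to 0.985 without control replicate 1. Gzf1, a zinc finger gene, measured 3.70, 5.40 and 5.85 FPKM in the controls and 7.84, 7.60 and 6.79 FPKM with DOPAC. Septin2 had 2 rows in the table under this symbol. The row with this pattern gave 0.72 as its log2 fold change (0.44 without control replicate 1) and the other row -0.93, so Septin2 is uncertain.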

How the data were processed

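RNA of activated CD8+ T cells from mouse spleen was sequenced in 6 libraries. Per the labels' protocols, full-length cDNA was made with a SMART-Seq HT kit and libraries with a Nextera XT kit. The submitters' processing notes list HISAT2 2.2.1, cutadapt 1.9 and build mm10. How FPKM were estimated, on which annotation, and how the 11175 genes were selected is not given in the sources used here. The authors deposited FPKM per gene and library, and in the same file, by its headers, their log2 fold change and their raw and adjusted p-values. The authors' deposited table gave Tiparp a log2 fold change of 0.63 and a p of 0.0132 by a test the headers do not name.

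Here log2(FPKM + 1) was fitted with limma 3.58.1 in R 4.3.3 (linear model with a mean-variance trend, 6.75 total degrees of freedom) to genes with a mean of at least 1 FPKM. Below it 288 genes were left out, and no gene sought was among them. Benjamini-Hochberg adjustment ran over 10887 genes at a threshold of 0.05. Single values were compared by exact two-sided permutation tests. Exon lengths and positions came from GENCODE M21 on GRCm38, which gave a length for 99.2% of tested genes, and length trends were removed by loess (span 0.5). The test was tested on simulated data. Those values were drawn independently for each gene and library, with no outlying library and no length trend. Plots used matplotlib 3.10.9 in Python 3.11.15.

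The rule for named genes took the genes sought and up to 4 genes of each list by smallest unadjusted p. It also took 7 fixed genes (Hif1a, Hsp90ab1, Ahrr, Cyp1a1, Cyp1b1, Maoa and Slc7a5). For each gene sought it took the 4 genes of closest pattern with a mean of at least 5 FPKM. That search covered 6235 genes. It left out predicted genes, antigen receptor segments, small RNAs and some other symbols, those starting with Rn among them. Besides the rule, Afmid and the remaining measured genes of the receptor complex list were named. Some items of the rule and lists are not reported here. Members and lists were chosen with earlier results of these data known.

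Library names gave the group and number of each sample. The title of DOPAC replicate 1 spells the treatment in another way than its other labels do. Between libraries of the same number, deviations from their group's mean had correlations over genes of 0.34, 0.16 and 0.28, each over 0.1, the bound set for treating the numbers as pairs. Of the 6 pairs of unlike number, control 2 with DOPAC 3 had 0.24 and control 3 with DOPAC 2 had 0.19. Both were above the lowest of the same-number values, and the other 4 were negative. Deviations from a group's mean cancel within the group, so positive values for some pairs force negative ones for others. The negative signs by themselves thus do not bear on the pairing. The reported fit and the permutation tests do not use the pairing, and blocking on the replicate number is an alternative. No label ties a number to an animal or a day.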

Additional observations from a re-analysis of the deposited data

How the results depend on the processing

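In 17 alternatives listed beforehand and 1 chosen after seeing the data (the replicate block without control replicate 1), Tiparp kept its direction wherever it had a value, and it had none under the filter of 5 FPKM. The replicate block, which pairs libraries by number, gave 0.63 for Tiparp and 0.18 for Arnt, and changed no call at the adjusted threshold. The count of genes past the threshold was 0 in the reported analysis, 2 with library weights (where the weight estimate stopped before full convergence) and 0 to 2 when 1 library was left out, the 2 without control replicate 1. At an unadjusted p under 0.05 the count of 456 became 231 to 1574 when 1 library was left out (1574 without control replicate 1), 1685 with the block added to that fit, 908 with library weights, 1113 without the length trend (1199 with the block) and 232 with the filter of 5 FPKM, which tests fewer genes. Leaving out 1 library each, Arnt ranged from -0.0445 to 0.307, and it had -0.0003 in the block fit without control replicate 1. The median of the receptor complex list ranged from -0.0006 to 0.312 in this way, with 0.0545 in that block fit, the PARP list from -0.0366 to 0.210 and the catechol list from -0.0732 to 0.0316. The catechol median, -0.0096 in the reported analysis, was also 0.0271 with the filter of 5 FPKM and -0.0760 at equal medians. Among other named genes, leaving out 1 library gave ranges across 0 for Clock (-0.0320 to 0.337), Ikzf3 (-0.202 to 0.263), Srpr (-0.0164 to 0.241), Top3a (-0.0553 to 0.218), Aftph (-0.0484 to 0.374) and Znf41-ps (-0.0502 to 0.514). Without the length trend, with or without the block, signs changed for Arntl (-0.0423), Clock (-0.0190), Ikzf3 (-0.0760) and Rheb (-0.0382). Library weights changed that of Ikzf3 (-0.221), and the block fit without control replicate 1 those of Ikzf3 (-0.245) and Top3a (-0.0217). The cause was not tested. FPKM hold no counts, so what depth limits cannot be stated in reads.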
